A study of Mus musculus with 374 samples.

Results

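Cytosolic ribosomal protein genes took 4.33% of all UMIs (unique molecular identifiers, counted as 1 per captured transcript) on mouse genes in 374 index-sorted blood cells. Their share was 6.20% in LSK cells (Lin- Kit+ Sca1+, a high-end progenitor/stem gate), 4.46% in the T cells, 3.84% in the erythroblasts, 3.24% in the B cells and 1.58% in the granulocytes. The genes were chosen by symbol, as those that begin with Rpl or Rps and a digit, or read Rplp0, Rplp1, Rplp2 or Rpsa, without the Rps6k kinases and without symbols marked -ps for pseudogene. The rule found 85 of the 19829 mouse genes of the table (0.429%), with 97052 UMIs. Small-subunit names are carried by 35 of them and large-subunit names by 50. Of the 85, 71 are structural genes by name, and the other 14 are paralogs, retrocopies and 1 binding protein. GENCODE M21 calls 78 of them protein coding, and 7 have a pseudogene biotype although their symbols do not carry -ps.

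The cells came from 1 C57BL/6 female mouse aged 10 to 13 weeks and were sorted one by one into the wells of 1 plate, and the fluorescence of each cell was recorded. From bone marrow came 44 B cells (B220+, FSC-A low), 96 erythroblasts (Ter119+ CD44+, FSC-A mid to high), 96 granulocytes (Mac1+ Gr1+) and 95 Lin- Kit+ Sca1+ progenitor/stem cells (LSK cells), and from the thymus 43 T cells (CD3+, FSC-A low). No agent or mutant allele is named in the labels. With 1 mouse, each population is 1 sample without replicate, so no test was made, and the 95% exact intervals beside the values hold only counting error.

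The cytosolic ribosome joins a small subunit, which reads the messenger RNA, and a large subunit, which forms the peptide bonds, and each of its proteins is encoded by a nuclear gene separate from those of the mitochondrial ribosome. Messenger RNAs of ribosomal proteins typically begin with an oligopyrimidine tract, a run of C and T at the transcription start, through which their translation is controlled together by growth signals. In blood formation these genes are known from Diamond-Blackfan anaemia, in which loss of 1 allele of a ribosomal protein gene impairs the making of red cells.

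The sequence around the annotated transcription start is where the oligopyrimidine tract is looked for, and it is printed for genes on which the results below turn. Windows run from 30 bases before to 30 bases after the start in RefSeq (GRCm38.p6), on the strand of the gene, with the longest run of C and T in capitals (the first where 2 are equal).
Rps9, chr7:3704011-3704070, forward strand: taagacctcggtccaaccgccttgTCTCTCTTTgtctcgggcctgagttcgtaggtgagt
Rpl41, chr10:128549139-128549198, reverse strand: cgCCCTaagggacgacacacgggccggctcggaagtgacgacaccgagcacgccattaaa
Rplp0, chr5:115559437-115559496, forward strand: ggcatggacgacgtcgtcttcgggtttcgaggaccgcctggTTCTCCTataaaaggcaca
Rplp2, chr7:141447621-141447680, forward strand: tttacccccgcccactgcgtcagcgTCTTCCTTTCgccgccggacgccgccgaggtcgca
Rpl14, chr9:120571487-120571546, forward strand: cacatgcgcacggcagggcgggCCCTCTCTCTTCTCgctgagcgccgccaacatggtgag
Rps27, chr3:90213619-90213678, reverse strand: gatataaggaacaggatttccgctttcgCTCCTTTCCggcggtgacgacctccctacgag
Rps27l, chr9:66946056-66946115, forward strand: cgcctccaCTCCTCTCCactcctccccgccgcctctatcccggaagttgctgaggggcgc

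The longest run was 14 bases in Rpl14, 10 in Rplp2, 9 in each of Rps9, Rps27 and Rps27l, 7 in Rplp0 and 4 in Rpl41. Rps27l holds 2 runs of 9 bases, of which the one not in capitals lies nearer the start, and Rpl41 has no longer tract in this window. RefSeq windows were matched for 62 of the 85 genes. Of these, 31 (50.0%) held a run of at least 8 bases, against 22.7% of the windows of 27025 genes. These 27025 are all genes with such a window, with no choice made here by gene type or expression. Expressed genes alone were not compared. The median longest run was 7.5 bases against 5. On either strand of the 300-base window from 250 bases before to 50 after the start, CCGGAA was found in 46.8% of the 62 genes and 15.2% of all genes, and CTTTCC in 45.2% and 26.4%. TATAAA, the core of the TATA box, was found in 11.3% and 14.2%. These matches describe letters near an annotated start and say nothing about which start was used in these cells.

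The UMIs on mouse genes per well had a median of 3028.5 in the B cells, 4347 in the T cells, 3880 in the granulocytes, 6113.5 in the erythroblasts and 7959 in the LSK cells, and ranged from 8 to 24033. Marker lists of each cell type took their highest share in the population sorted for it, with 0.956% for the B cell list, 0.396% for the T cell list, 15.2% for the granulocyte list, 24.7% for the erythroblast list and 0.353% for the LSK list. Well A8 of the B cells, which had high Gr1 fluorescence, and wells B19 to B24, which were high in haemoglobin transcripts, stood apart. The highest haemoglobin share of a B cell well, 18.1%, was in well B6, which had 485 UMIs. Well B6 was kept, as was well B2, which had high CD3 fluorescence. Without the 7 wells A8 and B19 to B24 the share of ribosomal protein genes in the B cells was 3.27% in place of 3.24%. Its log2 ratio over the LSK cells was then -0.92 in place of -0.94. Each population occupied its own rows of the plate (2 rows for each lymphocyte population and 4 for each of the others), so plate row and population cannot be told apart. Genes per population are given as CPM, the share of the UMIs on mouse genes scaled to 1000000, and because only the 3' end of a transcript is counted the values are not divided by length.

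In single wells, the share of ribosomal protein genes was lowest at 2.70%, at the median 6.33% and highest at 9.31% in the LSK cells, whose summed UMIs gave 6.20% (6.14% to 6.25%). The T cells ran from 1.92% through a median of 4.37% to 7.82%, with 4.46% (4.37% to 4.55%) over all wells. The B cells ran from 0.419% through 3.45% to 8.12%, with 3.24% (3.14% to 3.33%). These 3 populations formed overlapping but shifted ranges, and 11 of 44 B cells and 3 of 43 T cells lay below the lowest LSK cell. The granulocytes ran from 0 through a median of 0.819% to 7.92%, with 1.58% (1.54% to 1.62%) over all wells. The granulocyte at 0 had 8 UMIs in all. An approximate bound, 3 divided by these UMIs, allows a share of up to 37.5%. The erythroblasts ran from 0.259% through 2.45% to 9.44%, with 3.84% (3.80% to 3.89%). Both populations were wide, with 84 of 96 granulocytes and 50 of 96 erythroblasts below the lowest LSK cell, and 3 granulocytes and 14 erythroblasts at or above the LSK median. Of the 6381 ribosomal protein UMIs of the granulocytes, 893 were in well I13 alone, against a median of 27 per well. The 48 wells at or under the median Gr1 fluorescence held 5170 of them. Summed granulocyte values, and the shares of single genes in them, thus mostly describe these wells. Single plate rows gave 5.86% to 6.66% in the LSK cells, 4.19% to 4.68% in the T cells, 3.74% to 4.00% in the erythroblasts, 2.88% to 3.62% in the B cells and 1.04% to 1.95% in the granulocytes. Rows of the same population thus differed by more than the counting intervals of the sums.

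**Figure D1:**
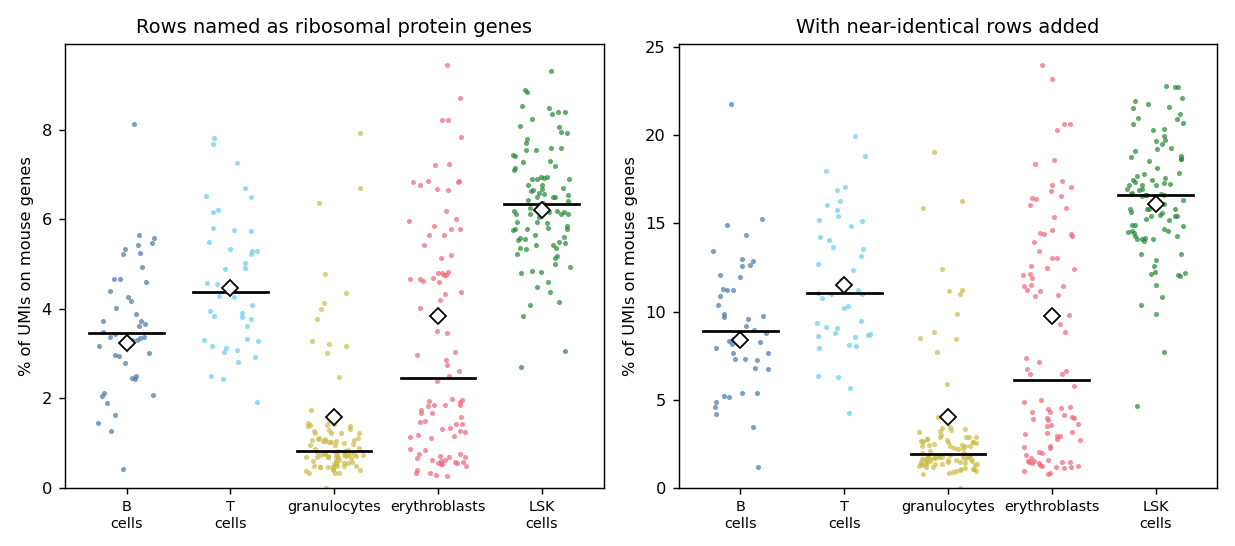
Percent of the UMIs on mouse genes taken by the 85 ribosomal protein genes (left) and by these with near-identical rows (right) in each well, by population. Points are wells, bars are medians over wells and diamonds are shares of the summed UMIs. The LSK wells lie between 2.70% and 9.31% on the left, and most granulocytes lie near their median of 0.819%.

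Relative to the LSK cells the summed share was 3.92-fold lower in the granulocytes, with a log2 ratio of -1.97 (-2.01 to -1.93), 1.91-fold lower in the B cells (-0.94, -0.98 to -0.89) and 1.39-fold lower in the T cells (-0.47, -0.51 to -0.44). In the erythroblasts it was 1.61-fold lower (-0.69, -0.71 to -0.67), but with scran size factors in place of total UMIs it was higher, at a log2 ratio of 0.32, a scaling that moved the median of all genes in this comparison from -0.73 to 0.28. Haemoglobin genes took 23.5% of the UMIs in the erythroblasts and 1.21% to 2.83% in the others. With the haemoglobin genes, S100a8, S100a9, Gm42418, Mir6240 and mitochondrial transcripts left out of the total, the erythroblast share was 6.01%, now above the 5.72% of the T cells, and the LSK share 7.54%, a log2 ratio of -0.33. Per 100 UMIs on ERCC spike-in RNA, added to each well, the ribosomal protein genes had 116 UMIs in the LSK cells, 66.6 in the erythroblasts, 45.1 in the T cells, 24.3 in the B cells and 15.3 in the granulocytes. Relative to ERCC the T and B cells stood further below the LSK cells than by share of UMIs, at log2 ratios of -1.37 and -2.26, and the granulocytes at -2.93. A lower level relative to ERCC cannot be told apart from less RNA per cell or poorer capture.

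Gene by gene, the granulocytes differed from the LSK cells across nearly the whole set. Of the 76 genes with at least 50 UMIs in both populations together, 75 were more than 2-fold lower, where 42.7% of the 4440 genes of the table with as many UMIs were, and 0 were more than 2-fold higher, where 13.7% were. Their median log2 ratio was -2.01, against -0.76 for all genes. The remaining gene was Rps27l, at a log2 ratio of -0.51. With scran size factors 49 of 76 were more than 2-fold lower, against 22.4% of all genes, at a median of -1.18 against 0.07 for all genes. In the erythroblasts 16 of 76 were more than 2-fold lower, against 40.9% of genes, and 0 were more than 2-fold higher, against 14.8%. Their median there was -0.78 and that of all genes -0.73, so that the ribosomal protein genes lay within 0.1 of the median gene on the log2 scale. With scran size factors the medians were 0.23 and 0.28. A change of scaling shifts every gene of a comparison by the same amount, so the gap between these medians cannot differ between scalings.

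In the B cells 36 of 76 genes were more than 2-fold lower than in the LSK cells, against 27.9% of all genes, and 0 were higher, against 6.56%. The count was 13 (17.1%) with scran size factors, against 19.7% of all genes, and 15 (19.7%) without the abundant genes in the total, against 20.7%, so that under both settings the share of genes past 2-fold was no higher than over all genes. The medians were -0.97 for the ribosomal protein genes and -0.44 for all genes by total UMIs and -0.68 and -0.14 with scran size factors. In the T cells 5 of 76 were lower, against 17.8%, and 0 were higher, against 8.35%, at medians of -0.47 and -0.22. These 4 comparisons share the LSK cells. Between the lymphocytes, 4 of 59 genes were more than 2-fold higher in the T cells, against 18.2% of 1103 genes, and 0 were lower, against 9.34%. Those 4 were Rplp1, Rpl14, Rps7 and Rpl21, named after their values were seen, and Rplp1 stood at 1370 CPM in the B and 2879 CPM in the T cells. The median between the lymphocytes was 0.46 against 0.29 for all genes. The summed share was 1.38-fold higher in the T cells (log2 0.46, 0.41 to 0.51).

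**Figure D2:**
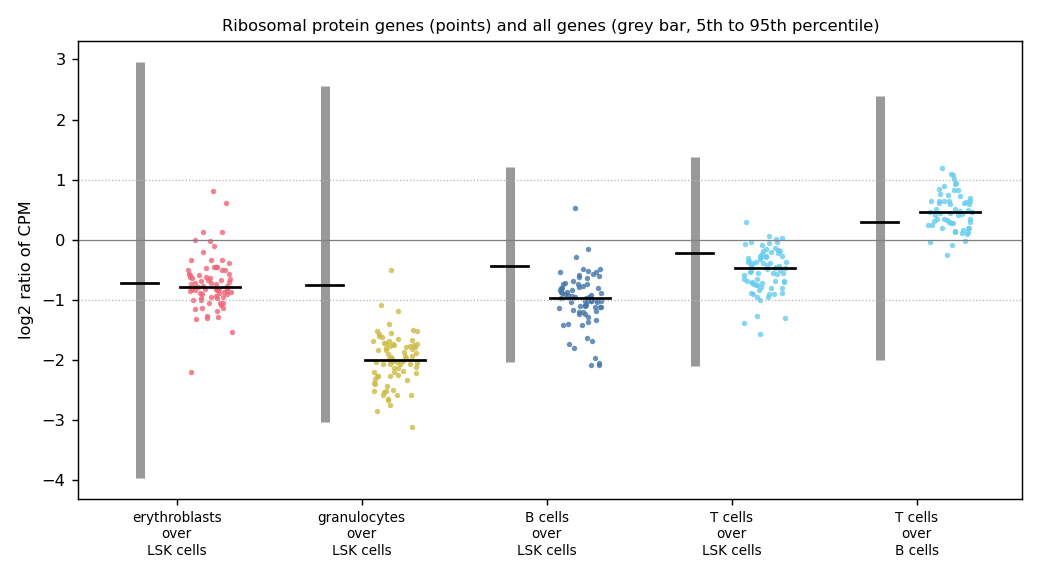
Log2 ratio of CPM for each ribosomal protein gene with at least 50 UMIs in the pair (points, bar at their median) beside all genes with as many UMIs (grey bar from the 5th to the 95th percentile, black bar at the median). The granulocyte points lie around -2.01 against a median of -0.76 for all genes, and the erythroblast points around -0.78. The direction in the erythroblasts turns with scran size factors, which shift all genes of a comparison by the same amount.

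Most UMIs on rows that match a ribosomal protein message were not on the rows of the genes themselves. Mammalian genomes carry many processed pseudogenes of ribosomal proteins, copies reinserted from messenger RNA, and reads from a gene can be counted on its copies. In the table, 917 rows had transcripts at least 90% identical to the messenger RNA of a structural gene over at least 50% of their length, of which 904 have a pseudogene biotype and 7 are among the 85 genes. They held 159889 UMIs. Grouped with the 71 structural genes, and with 6 structural genes that have no row of their own here, Rps2 and Rpsa among them, they formed 77 families with 249909 UMIs, 11.2% of the UMIs on mouse genes. The own row of the gene held 36.0% of its family's UMIs over all families, more than 50% in 25 families and under 10% in 19. Rps23, a small-subunit protein at the decoding centre, had 199 of 6903 UMIs on its own row (2.88%), and Rpl17 had 1 of 4939. Rpl8 in contrast had 95.6% on its own row, Rps9 80.7%, Rplp0 80.9%, Rpl32 82.1% and Rpl41 60.6%. Levels of a single symbol are therefore levels of that row, and which of the near-identical loci a molecule came from cannot be told from these counts.

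**Figure D3:**
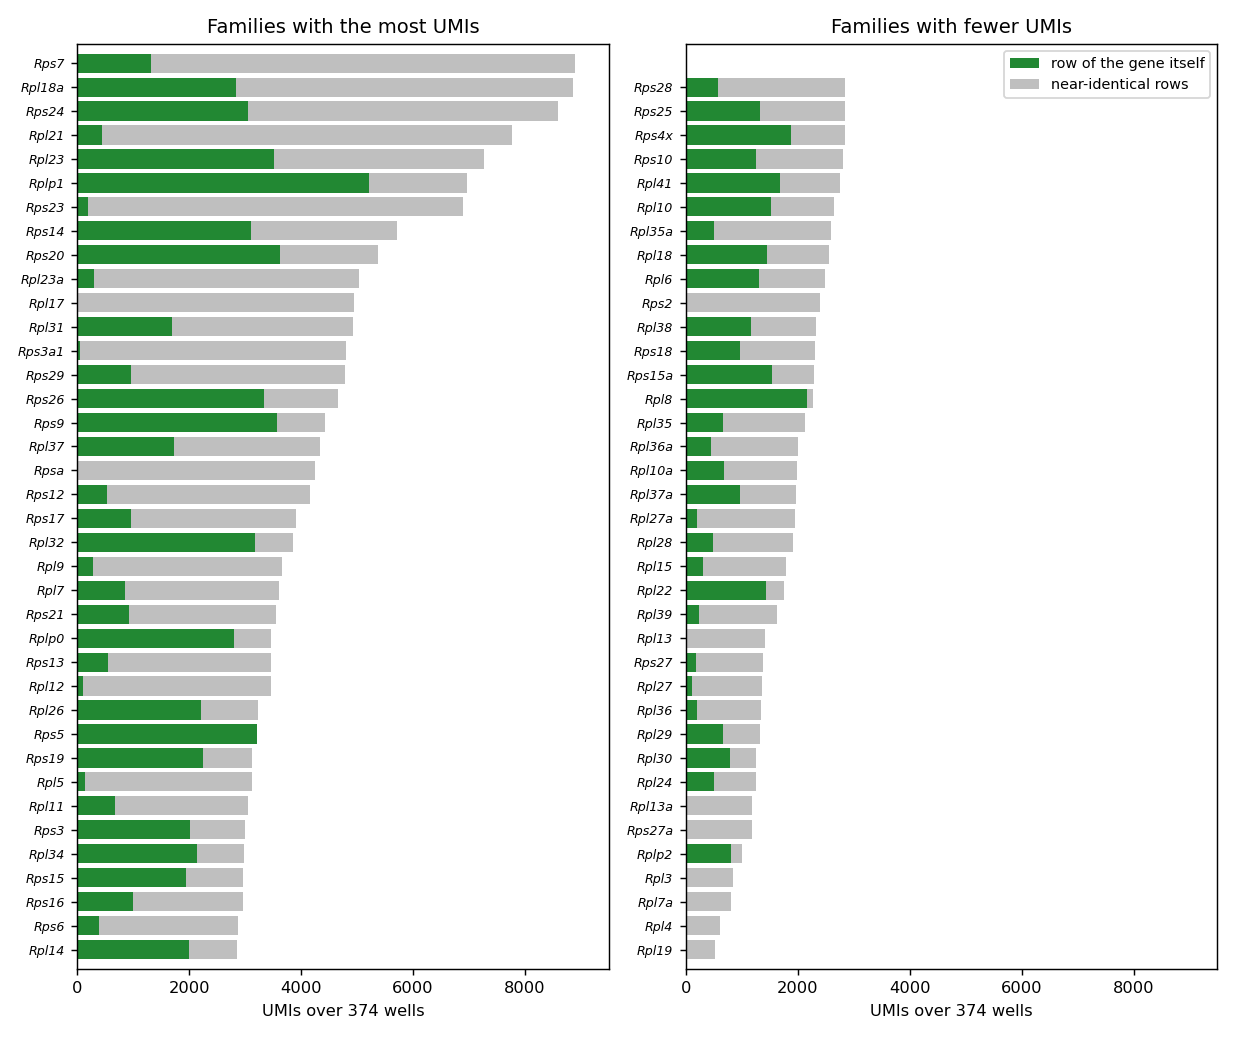
UMIs over the 374 wells for 75 of the 77 families, split into the row of the gene itself (green) and near-identical rows (grey), ordered by total. Rps23 and Rpl17 lie almost wholly on near-identical rows, and Rpl8 and Rps9 mostly on their own.

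The order of the populations was the same in the families, with 16.1% of the UMIs in the LSK cells, 11.5% in the T cells, 9.72% in the erythroblasts, 8.38% in the B cells and 4.00% in the granulocytes. The log2 ratio of the granulocytes over the LSK cells was -2.01 (-2.03 to -1.99) in the families and -1.97 by symbol. The mitochondrial ribosomal protein genes, 76 rows with 5178 UMIs, took 0.284% of the UMIs in the LSK cells and 0.167% in the granulocytes, a log2 ratio of -0.76 (-0.89 to -0.64). Of 22 of them with at least 50 UMIs in these populations, 9 (40.9%) were more than 2-fold lower in the granulocytes, against 42.7% of all genes, with a median of -0.86, near the median of all genes.

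The ratio of UMIs on small-subunit genes to those on large-subunit genes was lowest in the erythroblasts, at values of 0.980 (0.933 to 1.03) in the granulocytes, 0.961 (0.905 to 1.02) in the B cells, 0.938 (0.900 to 0.978) in the T cells, 0.900 (0.885 to 0.916) in the LSK cells and 0.816 (0.796 to 0.836) in the erythroblasts. The interval of the erythroblasts met none of the others. In the families it was 0.886 (0.872 to 0.899) and the B cell ratio 0.897 (0.864 to 0.931), so that these intervals overlapped. A ratio of summed UMIs is not a ratio of subunits, since genes differ in how well they are captured.

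Which genes departed from the rest was read from each gene's share of the ribosomal protein UMIs of a population, set against its mean share in the other 4, a value that does not depend on how the populations are scaled to each other. Most genes stayed close to their mean, with SDs over 76 genes of 0.29 on the log2 scale in the LSK cells to 0.42 in the erythroblasts. The 5 genes with the most UMIs were Rplp1 with 5210, Rps20 with 3616, Rps9 with 3569, Rpl23 with 3511 and Rps26 with 3331.

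Rps9, a small-subunit protein on the side where messenger RNA enters, had the largest departure in the granulocytes among the 5 most abundant genes. It took 6.47% (5.88% to 7.10%) of the ribosomal protein UMIs there, 4.14% in the B cells, 3.76% in the LSK cells, 3.57% in the T cells and 2.76% (2.57% to 2.97%) in the erythroblasts. The 4 granulocyte rows of the plate gave 5.90% to 8.41%, above each row of the other populations, which reached 4.91%. Its log2 departure was 0.86 in the granulocytes and -0.70 in the erythroblasts, and 0.89 and -0.68 in its family. In CPM it stood at 1024 (927 to 1127) in the granulocytes and 2332 (2230 to 2438) in the LSK cells, so its level was lower in the granulocytes but by less than that of the other abundant genes.

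The erythroblasts were marked by Rpl41, a very short basic peptide of the large subunit, and by Rplp0, the base of the stalk that binds translation factors. Rpl41 took 3.00% (2.79% to 3.22%) of the ribosomal protein UMIs in the erythroblasts and 1.21% to 1.49% in the other populations. Its erythroblast plate rows gave 2.41% to 3.59%, and no row elsewhere exceeded 1.79%. Its log2 departure was 1.16, and 1.11 in its family. Rpl41 was at 1152 CPM (1072 to 1236) in the erythroblasts, 752 in the LSK cells, 619 in the T cells, 412 in the B cells and 235 in the granulocytes. Rplp0 took 4.02% (3.78% to 4.26%) in the erythroblasts and 2.12% to 2.61% elsewhere, with rows of 3.63% to 4.63% against at most 2.91%, for a log2 departure of 0.74 (0.76 in its family). Rpl8, a large-subunit protein near the peptidyl transferase centre, was not among the genes chosen by rank but was next in line, at 3.12% (2.91% to 3.34%) in the erythroblasts and 1.77% to 2.50% elsewhere.

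The genes of the stalk had unlike patterns. Rplp1 and Rplp2 form the flexible arms on Rplp0, and Rplp1 took 6.69% of the ribosomal protein UMIs in the erythroblasts, 6.46% in the T cells, 4.80% in the LSK cells, 4.23% in the B cells and 3.89% in the granulocytes. Rplp2 lay between 0.751% and 0.937% in all 5 populations. Rplp1 was thus high in erythroblasts and T cells, Rplp0 in erythroblasts, and Rplp2 was nearly level.

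Rpl14, a large-subunit protein, was high in the LSK cells (2.27%, 2.14% to 2.40%) and the erythroblasts (2.18%, 2.00% to 2.37%), and low in the B cells (1.05%, 0.767% to 1.39%) and the granulocytes (1.22%, 0.967% to 1.52%). The T cells lay between them at 1.62%. Its departure was 0.58 in the LSK cells and -0.80 in the B cells, and 0.54 and -0.77 in its family. Its level was 1404 CPM in the LSK cells, 837 in the erythroblasts, 724 in the T cells, 339 in the B cells and 193 in the granulocytes. Rps27, a zinc-finger protein of the small subunit, went the other way, with 0.364% (0.208% to 0.590%) in the B cells and 0.131% (0.102% to 0.167%) in the LSK cells. These are shares of 173 UMIs, and in its family of 1379 UMIs, to which the retrocopy Rps27rt (1045 UMIs) belongs, the departures were 0.68 and -0.50 in place of 0.97 and -0.89. Without the 7 B cell wells that stood apart, the B cell departures were 0.81 for Rps27 and -0.75 for Rpl14.

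Several genes of the set are paralogs of structural genes, and their shares of the ribosomal protein UMIs differed between populations. Rps27l, a paralog of Rps27 known as a target of p53, had 9 UMIs in the B cells, 9 in the T cells, 38 in the granulocytes, 156 in the erythroblasts and 112 in the LSK cells. It took 0.609% (0.518% to 0.712%) of the ribosomal protein UMIs in the erythroblasts and 0.596% (0.422% to 0.817%) in the granulocytes, against 0.217% in the LSK cells, 0.205% in the B cells and 0.101% in the T cells. Its granulocyte rows ran from 0.199% to 0.968% and its erythroblast rows from 0.491% to 0.665%, inside the range of the granulocyte rows, while no row of the B, T or LSK cells exceeded 0.246%. Rpl7l1, a paralog of Rpl7, was lowest in the erythroblasts, with 13 UMIs and 0.0508% (0.0270% to 0.0868%), against 0.101% to 0.266% elsewhere. Its share was highest in the granulocytes, at a log2 departure of 1.38 (0.60 to 2.06). That was the largest there among genes with at least 50 UMIs. It rested on 14 UMIs in the wells at or under the median Gr1 fluorescence and 3 above it. The level of Rpl7l1 was not highest there. Its mean CPM over wells was 39.4 in the granulocytes, against 92.5 in the LSK cells and 49.8 in the T cells. Its granulocyte rows ran from 0.184% to 0.497%, and the highest row elsewhere was 0.176%, in the LSK cells. Rpl22l1, the paralog of Rpl22, took 0.75% in the T cells, 0.626% in the LSK cells, 0.562% in the erythroblasts, 0.546% in the B cells and 0.407% in the granulocytes, while Rpl22 itself lay between 1.40% and 1.59%. Rpl36al had 251 UMIs, and Rpl39l and Rpl10l are not analysed here. Rpl37rt, a retrocopy that GENCODE M21 calls a pseudogene, had 1841 UMIs and followed Rpl37 (1724 UMIs) closely, at 2.62% and 2.43% in the granulocytes and 1.64% and 1.39% in the T cells.

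**Figure D4:**
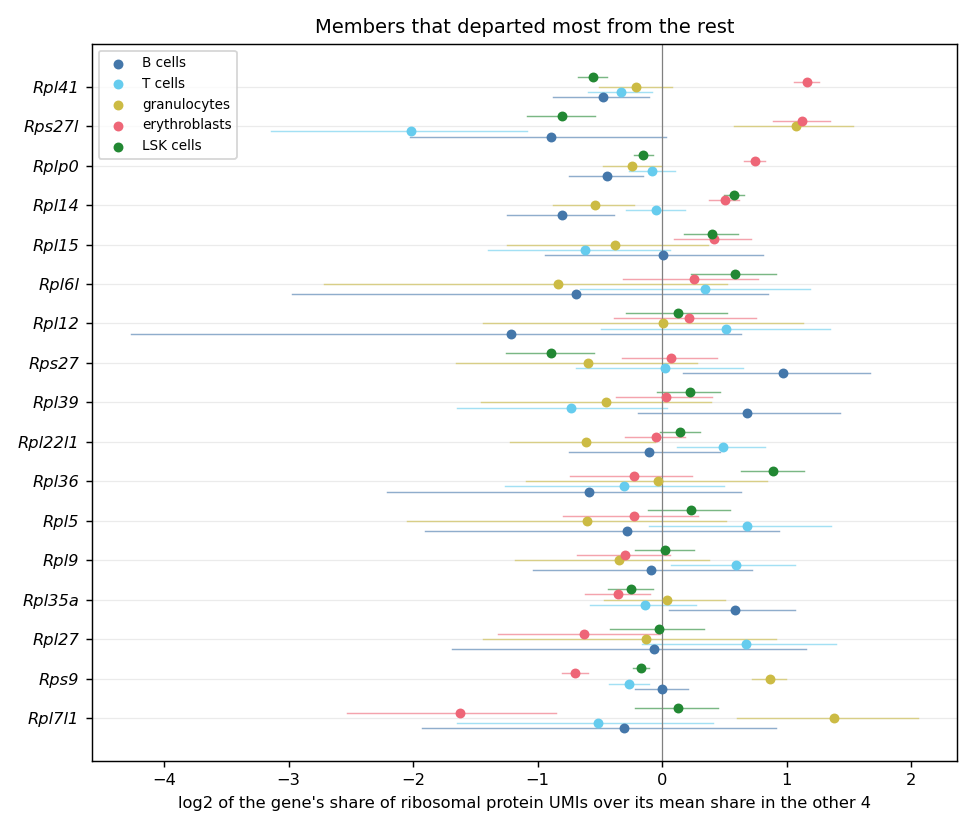
For 17 of the genes with the 3 highest and 3 lowest departures in any population, the log2 ratio of the gene's share of ribosomal protein UMIs over its mean share in the other 4 populations. Bars are 95% exact binomial intervals of the share, with the mean of the others held fixed. The 3 highest are Rpl41, Rps27l and Rplp0 in the erythroblasts, at 1.16, 1.12 and 0.74. In the granulocytes they are Rpl7l1, Rps27l and Rps9, at 1.38, 1.07 and 0.86. Bars of sparse genes such as Rpl12 and Rpl6l are wide.

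Other genes ranked at the ends on few UMIs, and most of these departures shrank when near-identical rows were added. In the B cells Rpl39 was at 0.68 by its own row and 0.28 in its family, Rpl35a at 0.58 and 0.13, and Rpl12 at -1.22, on 2 UMIs (-1.96 without the 7 wells), and -0.16. In the T cells Rpl5 was at 0.68 and 0.25, Rpl27 at 0.67 and 0.31, Rpl39 at -0.74 and -0.25, Rpl15 at -0.62 and -0.11, and Rpl9 at 0.59 and -0.035, with the opposite sign. In the granulocytes Rpl22l1, which has no family, was at -0.61, Rpl5 at -0.60 and -0.18, and Rpl6l, a processed pseudogene of Rpl6, at -0.84 on 4 UMIs. In the LSK cells Rpl36 was at 0.89 and 0.40. Adding rows also brought up families that their own rows did not show, among them Rps2 at 0.96 in the erythroblasts, Rps27a at 0.90 in the granulocytes, and Rpl12 at -1.01 in the granulocytes. Rps27a encodes a ubiquitin fusion, and its own row held 1 UMI. Among the sparse genes, Rpl12 overlaps Lrsam1, Rpl15 overlaps Nkiras1 and Rpl5 overlaps Fam69a on the other strand, so their counts are uncertain.

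Under 50 UMIs were 9 of the 85 genes. They were the structural genes Rps27a and Rpl17 with 1 UMI each, Rpl13a with 5, Rpl13 with 13, Rpl4 with 19 and Rps3a1 with 48, and Rpl3l with 2, Rps4l with 10 and Rps19bp1, a binding protein of Rps19 and not part of the ribosome, with 18. Rpl3l is known from striated muscle, and its 2 UMIs were 1 in the granulocytes and 1 in the LSK cells. Of the 6 structural genes, 5 are tagged in GENCODE M21 as hosts of small RNA genes, against 26 of all 71 structural genes. Rps4l had 5 of its 10 UMIs in the granulocytes.

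Of the 16 genes listed for Diamond-Blackfan anaemia, all 16 were more than 2-fold lower in the granulocytes than in the LSK cells, against 42.7% of all genes, and 5 (31.2%) in the erythroblasts, against 40.9%, with medians of -2.04 and -0.66, close to the whole set. Rps19, in which mutations are found most often, stood at 1467 CPM in the LSK cells, 933 in the erythroblasts, 888 in the T cells, 729 in the B cells and 307 in the granulocytes. Its share of the ribosomal protein UMIs was 2.43% in the erythroblasts and 2.37% in the LSK cells. Rpl5 and Rpl11, which bind the 5S ribosomal RNA and the p53 regulator Mdm2, were at 93.4 and 444 CPM in the LSK cells and 45.0 and 214 in the erythroblasts. These are levels of their own rows, which held 4.36% and 21.9% of the UMIs of their families. Rps14, known from the anaemia of the 5q- syndrome, was at 2058 and 1065 CPM, and overlaps Ndst1 on the other strand.

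Genes of translation outside the symbol rule were lower in the granulocytes too, with an exception in the ribosome itself. Fau encodes a ubiquitin-like protein fused to a small-subunit protein, and was at 1701 CPM in the B cells, 1434 in the LSK cells, 1362 in the T cells, 1259 in the granulocytes and 1129 in the erythroblasts. Its log2 ratio of granulocytes over LSK cells was -0.19, above that of each of the 76 genes chosen by symbol. Rack1 is not analysed here. Of 11 translation and oligopyrimidine messages, 11 were more than 2-fold lower in the granulocytes, against 42.7% of all genes, with a median of -2.52, and among them were the elongation factors Eef1a1 (181 CPM against 1150) and Eef2 (401 against 1469), the poly(A)-binding protein gene Pabpc1 (805 against 2356) and the nucleolar chaperone gene Npm1 (107 against 1024). All 11 subunit genes of initiation factor 3 with enough UMIs, of 12, were lower as well, with a median of -1.72. In the erythroblasts 6 of the 11 messages (54.5%) and 4 of the 11 subunits (36.4%) were more than 2-fold lower, against 40.9% of all genes, and Tpt1 and Eef1d lay above 0, at 0.17 and 0.82.

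Within the erythroblasts and the granulocytes the share of ribosomal protein genes differed with the surface markers of the sort. CD44, an adhesion molecule whose level is used to stage erythroblasts, had a median fluorescence of 2526.5 arbitrary units. In the 48 erythroblasts at or under it, the wells ran from 0.259% through a median of 1.33% to 6.77%, with 2.08% (2.02% to 2.13%) of the summed UMIs. In the 48 above it they ran from 0.520% through 4.77% to 9.44%, with 4.98% (4.91% to 5.05%). The groups overlapped, and the upper was more than 2-fold higher by the sums. It was also higher with abundant genes left out of the total (7.22% against 3.71%) and per 100 ERCC UMIs (103 against 28.8). Haemoglobin genes took 32.7% of the UMIs in the lower and 17.6% in the upper group, the erythroblast markers 33.9% and 18.7%, the granulocyte markers 0.208% and 0.149%, and the LSK markers 0.0126% and 0.0141%, and the part of these in the difference was not tested. Erythroblasts with an FSC-A, a measure of cell size, at or under the median gave 2.53% and those above 4.94%. Rpl41 took 3.64% (3.15% to 4.17%) of the ribosomal protein UMIs in the lower CD44 group and 2.83% (2.60% to 3.06%) in the upper, and Rplp0 4.63% and 3.85%, so that both were above the other populations in both groups.

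In the granulocytes the share was lower at high Gr1, an antigen that is high on mature granulocytes. The 48 wells at or under the median of 18601 arbitrary units ran from 0.328% through 1.08% to 7.92%, with 2.16% (2.11% to 2.22%) of the summed UMIs. The 48 above ran from 0 through 0.704% to 1.68%, with 0.736% (0.695% to 0.779%). All wells over 1.68% were thus in the lower group, and the values per 100 ERCC UMIs were 25.2 and 5.72. The granulocyte markers took 13.9% of the UMIs in the lower group, from 0.0850% to 33.0% in single wells, and 17.0% in the upper. Their medians over wells were close, at 16.8% in the lower and 16.5% in the upper group. Markers of LSK cells took 0.0121% and 0.0213%, with Meis1 at 0 in both, markers of B cells 0.0201% and 0.0231%, markers of T cells 0.00418% and 0.00912% and markers of erythroblasts 1.40% and 1.89%. Rps9 took 5.76% (5.14% to 6.43%) of the ribosomal protein UMIs in the lower group and 9.5% (7.90% to 11.3%) in the upper. The part of these markers and of well depth, at medians of 4712 and 3094 UMIs per well, in these differences was not tested.

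The other populations showed smaller differences between cells under and over a median. Progenitor/stem cells above the median FSC-A gave 6.41% and the others 5.98%, those above the median c-Kit 6.32% against 6.07%, and those above the median Sca-1 6.07% against 6.31%. Above and under the median FSC-A, the B cells gave 3.38% and 3.07% and the T cells 4.70% and 4.2%. In the LSK and B cells these gaps were smaller than those between plate rows of the same population, and in the T cells about as large.

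**Figure D5:**
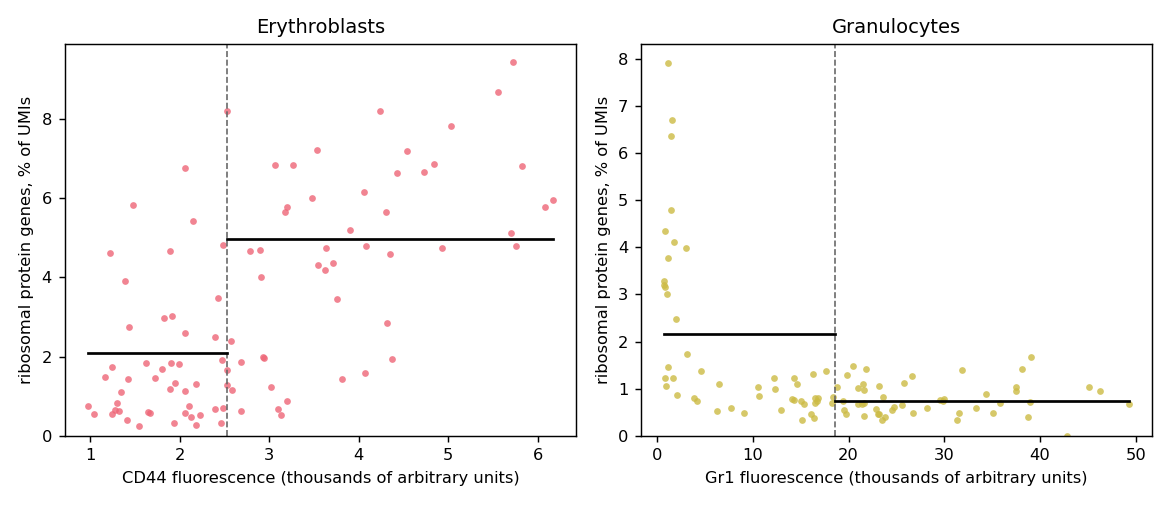
Share of ribosomal protein genes in each erythroblast against its CD44 fluorescence (left) and in each granulocyte against its Gr1 fluorescence (right). Points are wells, the dashed line is the median fluorescence and the horizontal lines are the shares of the summed UMIs on each side, 2.08% and 4.98% on the left and 2.16% and 0.736% on the right.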

How the data were processed

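For each well of the CEL-seq2 plate, the table deposited by the authors holds deduplicated UMI counts per gene, without normalization. The reads were processed by the authors with scPipe, whose default aligner is Rsubread. The aligner used for these counts, the build, the annotation and the strand setting were not given in the sources used here, and the labels give 2 contradictory layouts of barcode and UMI. Well names tied columns to samples, and 9 columns without a labelled sample were not used. No 2 wells shared a barcode, and no doublet caller was run on index-sorted cells. Symbols and coordinates came from GENCODE M21 (GRCm38), in which 74 mouse IDs had no symbol.

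The members and lists were chosen with earlier results of these data known. Counts were summed per population and given as CPM or shares, with 95% exact Poisson, binomial or conditional binomial intervals. Sums under 3 UMIs were set to 3 in counts of genes past 2-fold. ERCC rows held 6.76% of all UMIs. Genes named were the 5 most abundant and, among genes with at least 50 UMIs, the 3 highest and 3 lowest departures per population, plus fixed lists of paralogs, stalk genes, Diamond-Blackfan genes and translation genes, a few of which are counted in the sums but not reported here by name. Near-identical rows were found with blastn 2.17.0 (90% identity, 50% of the transcript, 100 bases). Cells were split at the median fluorescence. Size factors came from scran 1.30.0 in R 4.3.3. Other steps used Python 3.11.15 with numpy 2.4.6, pandas 2.3.3 and scipy 1.17.1. The intervals of ratios were tested on simulated Poisson counts. Such counts hold only counting error, so spread between wells or plate rows was not covered. Alternatives changed the weighting of wells, the denominator, the scaling, the count minimum, the wells and the members.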

Additional observations from a re-analysis of the deposited data

How the results depend on the processing

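Each population is 1 sample, and depth limits genes with few UMIs in a population, whose intervals are wide. Genes past the minimum of 50 UMIs over all wells can be among them, such as Rpl12 in the B cells (-4.26 to 0.64). No paired analysis was possible because no test was made, and the wells are different cells of 1 mouse whose numbers pair nothing. Keeping wells with at least 2000 UMIs (40 of 44 B cells, 42 of 43 T cells, 92 of 96 granulocytes, 95 of 96 erythroblasts and all 95 LSK cells), leaving out 7 B cell wells and a minimum of 20 UMIs moved no share, ratio or count beyond its counting interval or 1.5 times. All 30 departures of genes chosen by rank kept their sign in the mean over wells and on those wells, as did 21 of 22 in the families, an alternative chosen after seeing the data, the exception being Rpl9 in the T cells at -0.035.

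Other settings, given in the order B, T, granulocytes, erythroblasts, LSK, moved the shares to 3.61%, 4.59%, 1.32%, 3.24% and 6.35% as means over wells, to 4.65%, 5.72%, 2.25%, 6.01% and 7.54% without abundant and mitochondrial genes in the total, to 3.00%, 4.15%, 1.45%, 3.57% and 5.75% for structural genes alone, and to 8.38%, 11.5%, 4.00%, 9.72% and 16.1% for families. The order changed in the mean over wells, with the erythroblasts below the B cells, and without abundant genes, with the erythroblasts above the T cells. The log2 ratio of erythroblasts over LSK cells was -0.97 as a mean over wells, -0.33 without abundant genes, -0.80 relative to ERCC, -0.73 in families and, reversed, 0.32 with scran size factors. That of granulocytes was -2.27, -1.74, -2.93, -2.01 and -1.14 in the same order. That of B cells was -0.81, -0.70 and -2.26, and -0.64 with scran, and that of T cells -0.40 without abundant genes, -1.37 relative to ERCC and -0.33 with scran. T over B cells gave 0.35, 0.30, 0.89 and, with scran, 0.32.

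Without abundant genes in the total, 1 gene was more than 2-fold higher (18.8% of all genes) and 2 were lower (32.1%) in the erythroblasts, 15 were lower in the B cells (20.7%), and 1 was higher in T over B cells (14.5%). With scran the counts were 5 (30.6%), 1 (21.5%), 13 (19.7%) and 1 (14.8%), and 49 were lower in the granulocytes (22.4%). With a minimum of 1 UMI, where sums set to the floor of 3 enter, 5 of 85 genes were higher in the granulocytes (38.8% of all genes), 5 of 84 in the B cells (51.0%) and 4 of 84 in the T cells (46.8%) than in the LSK cells, and 8 of 81 in T over B cells (8.55%). The subunit ratio was 0.897 in B cells and 0.886 in erythroblasts for families, and 0.899 in granulocytes without the 3 most abundant genes of each subunit. Apart from these constructions, the cause of the changes was not tested.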
